A study of Homo sapiens with 7 samples.

Results

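The NKX2-5 locus was taken as the 30 kb window from 172650000 to 172680000 on chromosome 5 (hg19), which holds the NKX2-5 gene at 172659107 to 172662315 on the minus strand. Members are all CpGs listed in the window, chosen by position alone. There were 294 CpGs listed in at least 1 library, of 2586954 in the genome, and 205 of them had 10 or more reads in all 7 libraries, of 1734462 in the genome. Levels and calls below refer to these 205 CpGs unless stated otherwise, and the other 89 are described separately. Because NKX2-5 is read from the minus strand, positions above the gene lie upstream of its start, and distances below are from that start.

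The assay was enhanced reduced representation bisulfite sequencing (ERRBS), in which bisulfite turns unmethylated cytosine into a base read as T while methylated cytosine stays C. All libraries came from HUES8 cells, a line of human embryonic stem cells. The knockout cells (TKO) lack TET1, TET2 and TET3 together and were taken at day 0 as stem cells (SC), at day 3 as cardiac mesoderm (CME) and at day 8 as cardiac progenitors (CP). Wild-type cells (WT) were sampled at the same 3 stages and as beating cardiomyocytes (CM, day 14). The differentiated cells of both genotypes went through the same monolayer protocol, in which Wnt signalling is first activated with CHIR99021 and then blocked with IWP2. The series text says that TKO cells do not form beating cardiomyocytes, so no TKO library stands beside WT CM. There was 1 library per genotype and stage, 7 in all, and the sources used here do not say whether the TKO cells are 1 clone. WT CM is a cardiomyocyte library by its title and stage label, while its description says day 15 and its source name says CME. The descriptions of WT SC and WT CME carry a suffix that the other 5 lack. Whether these are another library set is not stated, and for SC and CME it cannot be told apart from genotype. The files hold methylation calls only, so neither the knockout nor the cell stages could be checked against RNA or protein.

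NKX2-5 encodes a homeobox transcription factor that is switched on in cardiac progenitors and acts with GATA4 and TBX5 on genes of the heart muscle. Genes for developmental transcription factors often lie in broad CpG-rich valleys that carry little DNA methylation in stem cells, even while the gene is silent. TET enzymes oxidise methylated cytosine, a step towards its removal, and the first oxidised form, hydroxymethylcytosine, is also read as C after bisulfite.

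Total coverage per library, the sum of reads over all listed cytosines, was 120742115 to 213058905. At the NKX2-5 locus the median depth per CpG was 67 reads for SC, 71 for CME and 56 for CP in TKO, against 58 for SC, 66 for CME, 80 for CP and 64 for CM in WT. The share of C at mitochondrial CpGs, a measure of unconverted cytosine, was 0.139% to 0.387% in the TKO libraries. In the WT libraries it was 1.46% in SC and 1.44% in CME but 0.219% in CP and 0.216% in CM.

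The NKX2-5 locus carried little methylation in every WT library and was heavily methylated in every TKO library. Pooled over the reads of all 205 CpGs, the level was 79.5% for SC, 80.4% for CME and 91.3% for CP in TKO. It was 5.69% for SC, 6.13% for CME, 5.00% for CP and 6.17% for CM in WT. The highest WT level thus lay far below the lowest TKO level, and the groups did not overlap. The TKO minus WT difference was 73.8 points in SC (95% Newcombe interval 73.0 to 74.5), 74.2 points in CME (73.5 to 74.9) and 86.3 points in CP (85.7 to 86.9). These intervals cover counting error only. They are too narrow, because 1 read can count at several CpGs and PCR copies of a molecule are counted apart.

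Taken over libraries, the mean CpG level of the window was 83.6% ± 6.64 in TKO (SD, n = 3) and 6.31% ± 0.698 in WT (SD, n = 4). The exact permutation test, two-sided, gave p = 0.0571, the smallest this design allows. With the 3 WT libraries of the same stages it gave an exact p of 0.1, again the smallest possible. The libraries of a genotype are different stages, so this spread holds stage as well as sampling.

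**Figure D1:**
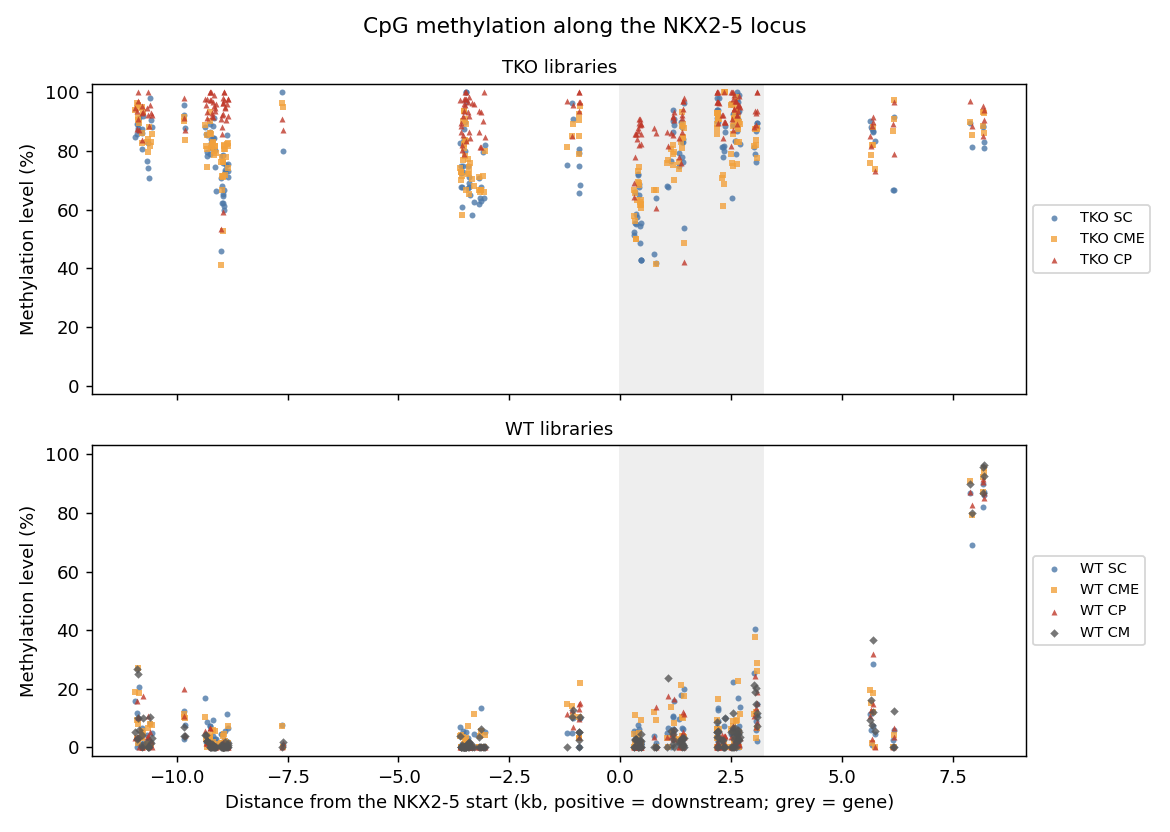
Methylation level (%) of each of the 205 CpGs against its distance from the NKX2-5 start in kb, with TKO libraries in the upper panel and WT libraries in the lower; the grey band is the gene. TKO points lie mostly above 60% throughout, while WT points lie mostly under 20%, with single CpGs of the low stretch up to 40.4%. The 6 CpGs farthest downstream are high in both genotypes.

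Nearly every CpG of the locus was called higher in TKO. Each CpG was compared by Fisher's exact test with Benjamini-Hochberg adjustment over the genome, and called at an adjusted p below 0.01 with a difference of 25 points or more. In SC, 198 of 205 CpGs were called higher and 0 lower, where 5.77% of all CpGs tested were called higher and 0.261% lower. In CME, 199 of 205 were higher and 0 lower, with 5.90% of all CpGs called higher and 0.310% lower. In CP, 198 of 205 were higher and 0 lower, with 10.3% of all CpGs called higher and 0.120% lower. Among CpGs of the genome under 20% in all 4 WT libraries, which 182 of the 205 are, the share called higher was 6.07% in SC, 6.34% in CME and 8.24% in CP. A fall of 25 points was not possible at those 182, so the counts of 0 lower do not show direction there. The median difference over the 205 CpGs was 75.6 points in SC, 76.0 in CME and 89.9 in CP, while the median over all CpGs tested was 0 in each comparison.

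The CpGs that were not called were few and mostly in one place. In all 3 comparisons they include the 6 CpGs at 172654129 to 172654442, which lie downstream of the gene and are described below. In SC the only other one was at 172661999, with 52.5% of 40 reads in TKO and 5.56% of 18 reads in WT (adjusted p = 0.0126, Fisher's exact test). In CP it was the CpG at 172661234, with 81.8% of 11 reads in TKO and 17.6% of 17 reads in WT (adjusted p = 0.0111, Fisher's exact test). Both differences exceeded 25 points, at depths under the median of their libraries.

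At some CpGs the genotypes stood at opposite ends of the scale. At 172671549, 9234 bp upstream, all 113 reads were methylated in TKO CP and 0 of 128 in WT CP (adjusted p = 6.11e-69, Fisher's exact test). The 0 of 128 allows a level of up to 2.91% (Wilson), and 3 reads would make 2.34%. At 172665811, 3496 bp upstream, TKO CP had 100% of 48 reads and WT CP 0 of 90, which allows up to 4.09% (adjusted p = 2.20e-36, Fisher's exact test). In SC the 2 named CpGs were 172665798, with 100% of 11 reads in TKO and 0 of 50 in WT, and 172659698, with 97.6% of 42 reads in TKO and 0 of 38 in WT. In CME 3 CpGs of the gene shared the full rise. They were 172659957, with 100% of 18 reads in TKO and 0 of 12 in WT, 172659963, with 100% of 20 reads in TKO and 0 of 11 in WT, and 172659978, with 100% of 19 reads in TKO and 0 of 12 in WT. None of the CME counts excludes a WT level of 20%, since 0 of 12 allows up to 24.2% and 0 of 11 up to 25.9%. CpGs were named here as the 2 with the largest rise in each comparison, and those tied at 100 points were ordered by reads over all 7 libraries. At 100 points there were 1 CpG in SC, 3 in CME and 9 in CP. The 3 in CME also had equal numbers of reads, so all are given, while the other 7 in CP are not.

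The unmethylated domain of WT cells was broad. After the levels were seen, the CpGs under 50% in all 4 WT libraries were marked out, and they form 1 unbroken run of 199 CpGs from 172656146 to 172673259. It spans 17114 bp and reaches from beyond the end of the gene to the last CpG listed upstream, so its upstream edge was not seen. Its pooled level was 79.2% for SC, 80% for CME and 91.3% for CP in TKO, against 4.28% for SC, 4.25% for CME, 2.93% for CP and 3.53% for CM in WT. In TKO, 0 of the 199 CpGs were under 20% in any library, and 106 in SC, 113 in CME and 187 in CP were over 80%. In WT, 68 CpGs in SC, 63 in CME, 85 in CP and 86 in CM had no methylated read, and the highest single level was 40.4%. Since the WT levels marked out this stretch, its low WT level is a description.

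Downstream of it lay 6 CpGs that were methylated in both genotypes. From 172654129 to 172654442, 7873 to 8186 bp from the start, their pooled level was 85.4% for SC, 89.6% for CME and 91.5% for CP in TKO. It was 84.1% for SC, 90.6% for CME, 87.7% for CP and 92.1% for CM in WT. The 2 ranges overlap, and 0 of the 6 were called in any genotype comparison. The largest difference of a single one was 12.6 points, at 172654402 in SC (adjusted p = 0.736, Fisher's exact test). Between these 6 and the low stretch, CpGs were listed in part of the libraries. WT SC had 83.3% of 12 reads at 172654484. The CpG at 172654633 had 85.7% of 21 reads in TKO SC and 96.6% of 29 in TKO CME. In WT CME that CpG had 58.3% of 12 reads. At 172654922, TKO SC had 75% of 32 reads and TKO CME 76% of 25, against 50% of 10 reads in WT SC, 66.7% of 12 in WT CME and 84.6% of 13 in WT CP. At 172655077, TKO SC had 92% of 25 reads and TKO CME 78.3% of 23, against 80.6% of 36 reads in WT SC and 95.7% of 23 in WT CME. At 172655315, WT CME had 40% of 10 reads. Nearer the gene, at 172655879 to 172655929, levels were 0% to 8.33% at 9 CpGs in WT SC and 0% to 20% at 7 CpGs in WT CME. Levels between the high and the low CpGs rest on few reads, so no sharp edge was placed in WT SC or WT CME.

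By position, the gene itself held 86 of the 205 CpGs. Its pooled level was 79.7% for SC, 79.8% for CME and 91.0% for CP in TKO, against 5.55% for SC, 5.34% for CME, 3.49% for CP and 4.10% for CM in WT. The upstream flank, beyond 1000 bp from the start, held 99 CpGs. Its level was 78.6% for SC, 79.6% for CME and 91.9% for CP in TKO, against 3.17% for SC, 3.07% for CME, 1.5% for CP and 1.82% for CM in WT. Gene and upstream flank thus had close levels within each TKO library.

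The promoter, taken as the 1000 bp upstream of the start, was thinly covered. Its 5 CpGs all lie 904 bp or more from the start, and no CpG with 10 reads in all 7 libraries lay between there and a point 302 bp inside the gene. The 5 had 73.9% for SC, 88.6% for CME and 97.3% for CP in TKO, against 5.15% for SC, 8.39% for CME, 11.3% for CP and 4.76% for CM in WT. They rest on 150 reads in TKO CP and 97 in WT SC, the fewest in each genotype, and the Wilson intervals were 93.3% to 99.0% and 2.22% to 11.5%. The start itself is therefore not described by the shared CpGs.

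Beside the start, 8 CpGs 102 to 144 bp inside the gene were listed in the SC and CME libraries but in neither the CP nor the CM libraries. Their levels were 25% to 45.8% in TKO SC (median 41.7%, 23 or 24 reads each) and 75% to 83.3% in TKO CME (median 82.6%, 11 or 12 reads each). In WT SC they were 0% to 7.69% (median 0, 12 to 14 reads each), and in WT CME all were 0% at 15 or 16 reads each. TKO was above WT at both stages here too. The near-equal read numbers at neighbouring CpGs leave room for the same reads being counted at each of the 8.

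The downstream flank held 15 CpGs, of which 6 are the methylated ones above. Its pooled level was 86.0% for SC, 85.3% for CME and 88.3% for CP in TKO. In WT it was 25.5% in SC, 33.4% in CME, 37.4% in CP and 41.4% in CM. The share of reads from the 6 methylated CpGs was higher at the later stage, with 484 of 1335 reads in WT CM and 220 of 879 in WT SC. As a mean over CpGs the WT levels were 37.9% in SC, 40.7% in CME, 40.4% in CP and 42.7% in CM, so WT CM minus WT SC was 15.9 points by reads and 4.85 points by CpGs.

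Among the 89 CpGs not listed in all 7 libraries, those listed in both genotypes at a stage numbered 35 for SC, 39 for CME and 9 for CP. TKO exceeded WT by more than 25 points at 28 of the 35, 34 of the 39 and 8 of the 9. No share over CpGs of the genome listed in part of the libraries was taken, so these counts describe the locus only. In the run from 172658869 to 172659220, at the end of the gene, the median was 96.9% in TKO SC and 90.8% in TKO CME, against 4.17% in WT SC and 12.0% in WT CME. WT CME was higher just past the gene, on 12 or 13 reads each. It had 38.5% at 172659050, 46.2% at 172659054, 15.4% at 172659080 and 41.7% at 172659083. WT SC had 13.6% of 22 reads at 172659050. The CpG at 172658869 reached 64.7% in WT SC and 60% in WT CME, and the one at 172656187 reached 58.8% in WT CM, so the low WT stretch is unbroken for shared CpGs but not for all listed ones. From 172669477 to 172669892, more than 7 kb upstream, the median was 90.9% in TKO SC and 92.3% in TKO CME, against 5.36% in WT SC and 2.58% in WT CME.

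CpGs 200 bp or less apart were joined into 15 runs, and the 9 runs of 5 or more CpGs, holding 188 CpGs, were tested as clusters on summed reads. All 9 were called higher in TKO in SC, in CME and in CP, where 6.34%, 6.18% and 12.3% of all clusters tested were. Among clusters under 20% in all 4 WT libraries the shares were 9.49%, 9.55% and 12.6%. In a limma model of genotype plus stage over the 3 shared stages, with 2 residual degrees of freedom, all 9 were higher in TKO at adjusted p from 3.50e-05 to 3.47e-04, with mean differences of 69.1 to 87.6 points. Here 6.18% of all clusters were called higher. The stages are not replicate cultures, so these p-values do not measure the spread between cultures or clones of a genotype. On a logit scale in place of the arcsine square root, limma called 5 of the 9.

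**Figure D2:**
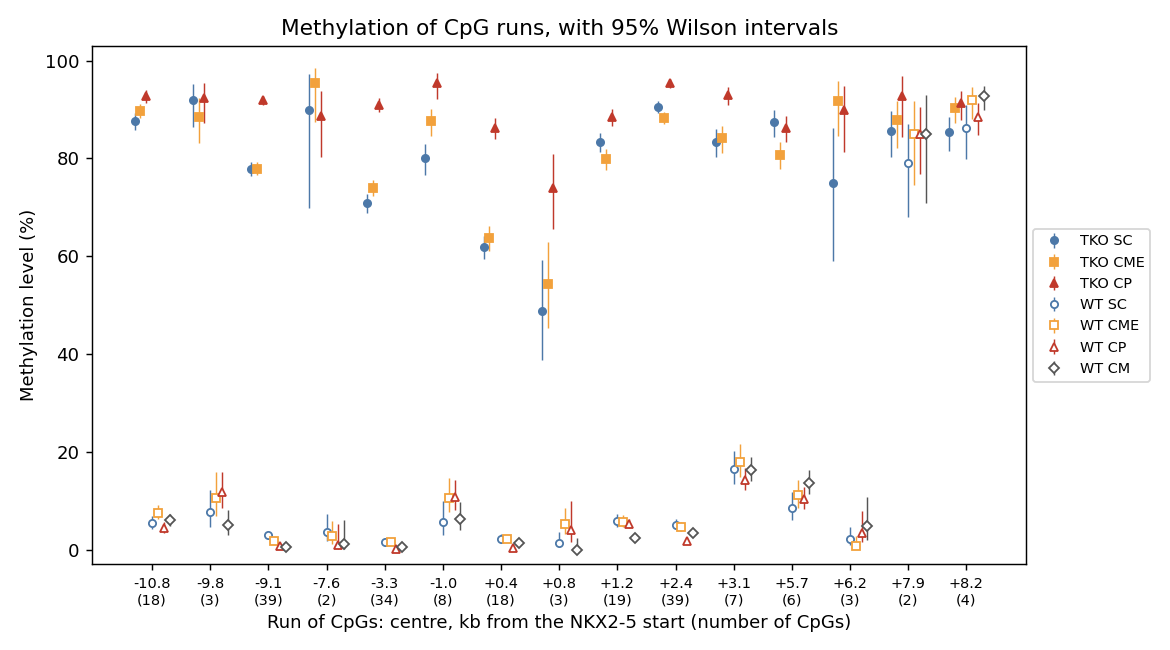
Pooled methylation level (%) of the 15 runs of CpGs in each library, ordered from upstream to downstream by distance from the NKX2-5 start in kb, with the number of CpGs in parentheses; filled symbols are TKO, open symbols WT, and bars are 95% Wilson intervals. TKO lies above WT in 13 runs, and the intervals of the genotypes meet in the 2 runs farthest downstream.

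The clusters differed more among themselves in TKO SC and TKO CME than in TKO CP. Over the 9, levels ran in TKO from 61.8% to 90.5% for SC, from 63.7% to 89.8% for CME and from 86.2% to 95.4% for CP. The range in WT was 1.48% to 16.5% in SC, 1.56% to 18.0% in CME, 0.0392% to 14.3% in CP and 0.457% to 16.3% in CM. In all 4 WT libraries the highest of the 9 was the same cluster, 172659228 to 172659298 at the end of the gene.

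The cluster nearest the start had the lowest TKO level at SC and CME. It lies 302 to 465 bp inside the gene, from 172661850 to 172662013, and holds 18 CpGs. Its level was 61.8% for SC (95% Wilson interval 59.4 to 64.2), 63.7% for CME (61.1 to 66.2) and 86.2% for CP (84.0 to 88.2) in TKO. In WT it was 2.15% in SC, 2.13% in CME, 0.261% in CP and 1.41% in CM. A run of 3 CpGs next to it, 757 to 802 bp inside the gene, was lower still and too short to be tested, with 48.9% for SC, 54.2% for CME and 74.0% for CP in TKO. That run had WT levels of 1.44% for SC, 5.33% for CME and 4.04% for CP, and 0 of 158 reads for CM, which allows up to 2.37% (Wilson). Both had TKO levels at SC between those of WT and those of the other tested clusters in TKO.

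The other 3 clusters of the gene had higher TKO levels at each stage. The cluster from 172660884 to 172661261 (19 CpGs) had 83.3% for SC, 79.9% for CME and 88.5% for CP in TKO, against 5.79% for SC, 5.74% for CME, 5.21% for CP and 2.34% for CM in WT. The cluster from 172659628 to 172660146 (39 CpGs) had 90.5% for SC, 88.4% for CME and 95.4% for CP in TKO, against 5.11% for SC, 4.62% for CME, 1.70% for CP and 3.42% for CM in WT. This was the highest of the 9 clusters in TKO SC. The last one in the gene, 172659228 to 172659298 (7 CpGs), had 83.4% for SC, 84.2% for CME and 93.0% for CP in TKO, against 16.5% for SC, 18.0% for CME, 14.3% for CP and 16.3% for CM in WT.

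Upstream of the start there were 4 clusters. The one that straddles the promoter's outer edge, 172663219 to 172663508 (8 CpGs), had 80% for SC, 87.6% for CME and 95.4% for CP in TKO, against 5.59% for SC, 10.7% for CME, 10.8% for CP and 6.32% for CM in WT. Farther out, 172665367 to 172665921 (34 CpGs) had 70.9% for SC, 74.0% for CME and 91.0% for CP in TKO, against 1.48% for SC, 1.56% for CME, 0.0392% for CP and 0.537% for CM in WT. This was the second lowest cluster in TKO SC and the lowest in WT CP. The cluster 172671156 to 172671667 (39 CpGs) had 77.9% for SC, 77.9% for CME and 91.9% for CP in TKO, against 2.93% for SC, 1.68% for CME, 0.656% for CP and 0.457% for CM in WT. The outermost, 172672873 to 172673259 (18 CpGs), had 87.6% for SC, 89.8% for CME and 92.8% for CP in TKO, against 5.48% for SC, 7.58% for CME, 4.36% for CP and 5.98% for CM in WT.

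The tested cluster downstream of the gene, 172656581 to 172656695 (6 CpGs), had 87.4% for SC, 80.7% for CME and 86.2% for CP in TKO, against 8.57% for SC, 11.2% for CME, 10.4% for CP and 13.7% for CM in WT. It was the 1 cluster of the 9 whose level in TKO CP was not above that in TKO SC.

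The genotype difference grew at CP in part of the locus. A z test on the reads asked whether TKO minus WT changed between stages, at the same adjusted p and with a change of 25 points or more. CP against SC, 1 of the 9 clusters was called larger, where 5.81% of all clusters and 2.96% of those under 20% in all 4 WT libraries were. It was the cluster nearest the start, with a TKO minus WT difference of 85.9 points in CP and 59.7 points in SC, a change of 26.3 points (adjusted p = 2.07e-52, z test). The next changes were 21.5 points at 172665367 to 172665921 and 16.3 points at 172671156 to 172671667, under the size required. A share of 1 in 9 clusters is not set apart from the background, and 0 were called with a size of 40 points, with a gap of 500 bp or in 1 kb tiles. CME against SC, 0 of 9 were called (0.0602% of all clusters were called in either direction), and the changes ran between -9.22 and 3.00 points. CP against CME, 0 of 9 were called (5.90% of all clusters were called in either direction), the largest change being 24.4 points, again at the cluster nearest the start.

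**Figure D3:**
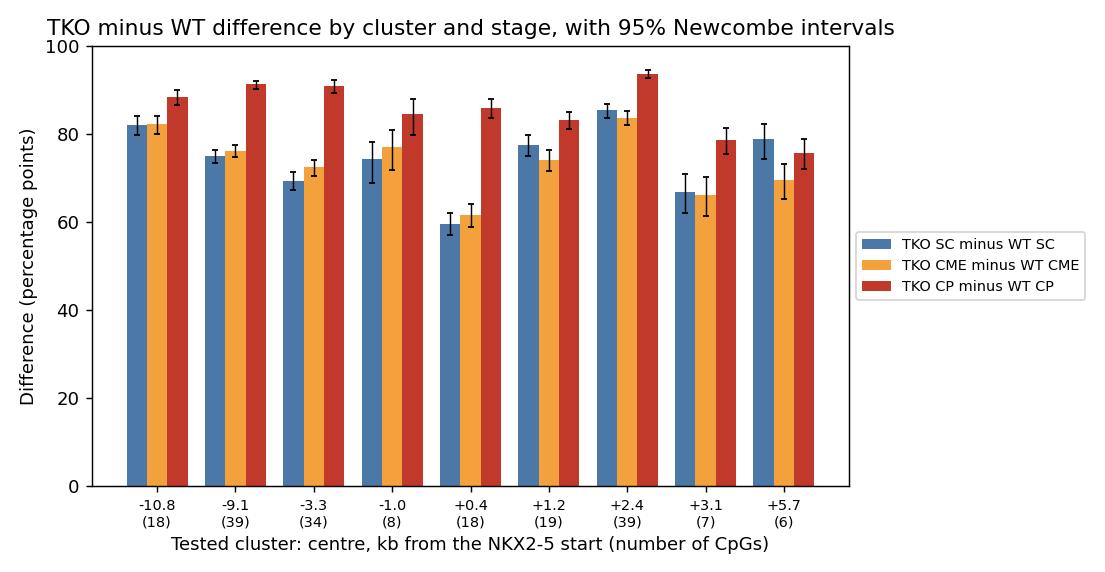
TKO minus WT difference in methylation (percentage points) of the 9 tested clusters at SC, CME and CP, ordered from upstream to downstream by distance from the NKX2-5 start in kb, with the number of CpGs in parentheses and 95% Newcombe intervals as bars. The CP bar is the highest in 8 of the 9 clusters, and the cluster nearest the start has the smallest difference at SC and CME.

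Within TKO cells, CME and SC had close levels over the window as a whole. The pooled level was 80.4% in TKO CME and 79.5% in TKO SC, and 1 of 205 CpGs was called higher and 0 lower (0.141% of all CpGs tested were higher and 0.0952% lower). That CpG, at 172663219 in the promoter, had 95.5% of 67 reads in TKO CME and 68.5% of 73 in TKO SC, with an adjusted p of 0.00574 by Fisher's exact test. The 2 stages were farther apart over the 5 promoter CpGs, with 88.6% in TKO CME and 73.9% in TKO SC. Over the 8 thinly read CpGs beside the start the medians were 82.6% in TKO CME and 41.7% in TKO SC. The tested cluster nearest the start, with many more reads, had 63.7% in TKO CME and 61.8% in TKO SC. The run of 3 CpGs next to that cluster had 54.2% in TKO CME and 48.9% in TKO SC. TKO CP was above TKO CME at 182 of the 205 CpGs and in all 9 clusters. The median difference over the 205 CpGs was 10.4 points, against 0 over all CpGs tested. Among the 205, 5 CpGs were called higher and 0 lower, where 0.995% of all CpGs were higher and 0.123% lower. Another 12 passed the adjusted p with a smaller rise, so 17 passed it in all. The share of all CpGs that passed the adjusted p alone was not taken. The 5 were at 172661961 and 172661970 in the gene, each with 85.7% in TKO CP and 50% in TKO CME, and at 172665379, 172665735 and 172671279 upstream, with differences of 33.8, 32.9 and 25.3 points. None of the 9 clusters reached 25 points in TKO CP minus TKO CME (0.842% of all clusters were called in either direction) or in TKO CME minus TKO SC (0.0406%), the nearest being 22.5 points at the cluster beside the start in TKO CP minus TKO CME.

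Across the WT course the NKX2-5 locus stayed low, with no call in either direction. In each of 4 comparisons, Fisher's exact test called 0 of the 205 CpGs and 0 of the 9 clusters. For WT CME minus WT SC, 0.0152% of all CpGs and 0.0393% of all clusters were called in either direction. For WT CP minus WT CME these shares were 2.23% and 3.58%, and for WT CM minus WT CP they were 0.0573% and 0.0455%. For WT CM minus WT SC they were 1.83% and 3.17%. WT CP minus WT CME and WT CM minus WT SC each cross the description suffix that only WT SC and WT CME carry. In those comparisons stage cannot be told apart from that suffix, and its part was not tested. With the adjusted p alone, WT CP was below WT CME at 2 CpGs. They were 172659661, with 4.47% in WT CP and 22.6% in WT CME, and 172673259, with 3.38% in WT CP and 18.9% in WT CME. WT CM was below WT SC at another 2, namely 172659276, with 18.9% in WT CM and 40.4% in WT SC, and 172671184, with 0 of 148 reads in WT CM and 11.5% in WT SC. With the adjusted p alone, clusters differed by 1.03 to 3.22 points for WT CP minus WT CME (5 of 9 lower), by 1.15 to 2.87 points for WT CM minus WT CP (2 higher, 1 lower) and by 2.48 to 3.45 points for WT CM minus WT SC (2 lower), while 0 passed for WT CME minus WT SC. No share over all CpGs or clusters was taken for the adjusted p alone, so the counts at that setting describe the locus only. In WT SC, 193 of the 205 CpGs were under 20%, so a fall of 25 points was not possible there.

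The WT levels of the low stretch stand beside unequal shares of unconverted cytosine. The pooled level was 4.28% for SC, 4.25% for CME, 2.93% for CP and 3.53% for CM in WT, and mitochondrial CpGs read as C at 1.46% for SC, 1.44% for CME, 0.219% for CP and 0.216% for CM. The 5 promoter CpGs had 5.15% for SC, 8.39% for CME, 11.3% for CP and 4.76% for CM in WT. Of these, the SC level rests on 97 reads. The part of unconverted cytosine in these differences was not tested. No count of locus CpGs or clusters called by Fisher's exact test changed when levels were corrected for the mitochondrial share of C. These WT differences, like that share, are far under the size required for a call. The unchanged counts therefore say nothing about the part of unconverted cytosine.

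In TKO CP, 6 CpGs were under 70%, picked after their levels were seen. At 172660894, 1421 bp inside the gene, the level was 53.7% for SC, 48.6% for CME and 42.1% for CP in TKO, against 0% for SC, 3.57% for CME, 3.54% for CP and 0% for CM in WT. The CpGs on its sides had 98.0% and 97.1% in TKO CP. In each TKO library the CpG at 172660894 was read on the minus strand only, so its strands could not be compared. At 172671310, 8995 bp upstream, TKO SC had 45.8%, TKO CME 41.3% and TKO CP 53.6%, while the 4 WT libraries had 0.840% to 4.67%. Here the strands differed: on the plus strand 0 of 20 reads (TKO SC), 0 of 41 (TKO CME) and 0 of 52 (TKO CP) were methylated, which allows up to 16.1%, 8.57% and 6.88% (Wilson). On the minus strand the levels were 78.6% for SC, 74.5% for CME and 100% for CP in TKO. At 172671260, 50 bp nearer the start, the plus strand had 96.2% of 52 reads in TKO CP and the minus strand 39.8% of 98. Over the CpGs read on both strands, the TKO libraries had a median absolute strand difference of 9.95 points for SC, 8.10 for CME and 4.95 for CP. The cause of the 2 strand differences was not tested. The remaining 3 CpGs lay 302, 316 and 792 bp inside the gene and had 69.2% of 13 reads, 64.3% of 14 reads and 60.7% of 61 reads in TKO CP. Those at 302 and 316 bp were read on the plus strand only in each TKO library.

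Set against other stretches of the genome, the NKX2-5 window was among those with the largest genotype difference. The genome was divided into 30 kb windows, and the mean of CpG differences was taken in the 4569 windows with 100 or more CpGs. The NKX2-5 window had 72.5 points in SC, 73.3 in CME and 85.6 in CP, and ranked 2, 1 and 1 among all windows. Among the 2210 windows under 20% in all 4 WT libraries, where the medians were 0.359, 0.240 and 2.87 points, it ranked 1 at each stage. The first place depends on how many CpGs a window must hold. With 50 or more, a setting added after seeing the data, it ranked 9, 8 and 5 among 5366 low windows, and 10, 8 and 5 among all 10757. A rank is a description of these libraries and no test was made on it.

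**Figure D4:**
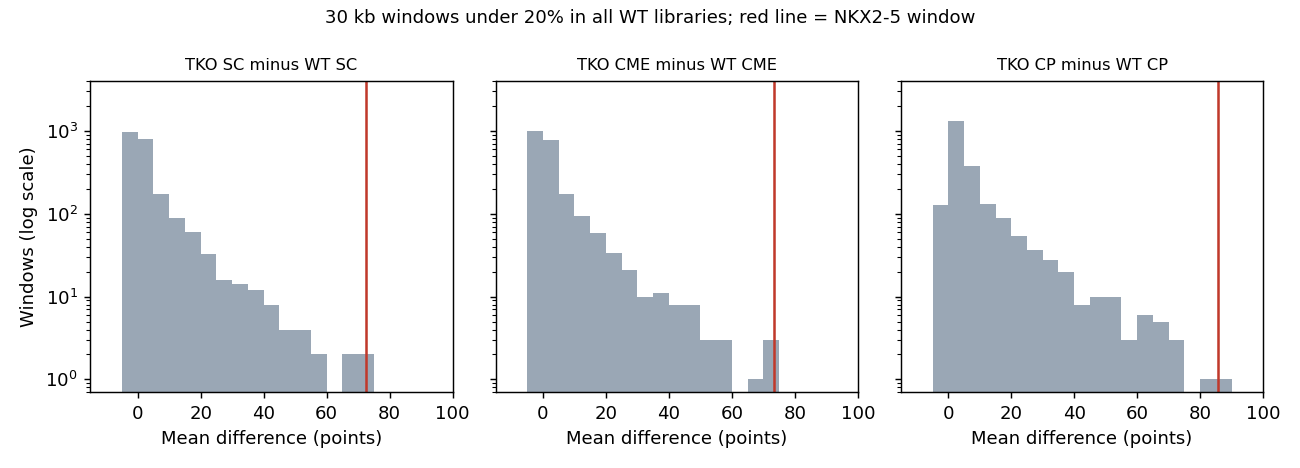
Number of 30 kb windows (log axis) by their mean TKO minus WT difference in percentage points, in SC, CME and CP, for the 2210 windows with 100 or more CpGs and under 20% in all 4 WT libraries. The red line marks the NKX2-5 window, at 72.5, 73.3 and 85.6 points, at the right end of each distribution.

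Clusters elsewhere whose 7 levels were most like those of the cluster nearest the NKX2-5 start are given by position, since no hg19 gene annotation was used. Likeness was the mean absolute difference in level over the 7 libraries, and the 5 nearest were within 1.57 points. The nearest, at 33787611 to 33787659 on chromosome 17 (hg19), had 60.5% for SC, 62.8% for CME and 85.6% for CP in TKO, against 2.65% for SC, 5.14% for CME, 0.475% for CP and 0.790% for CM in WT. The others lay on chromosome 16 from 88522294 to 88522597, chromosome 1 from 119535722 to 119535946, chromosome 11 from 31841589 to 31841663 and chromosome 2 from 157186000 to 157186446. In all, 182 clusters lay within 5 points of the NKX2-5 cluster on this measure, so its course through the 7 libraries was also found elsewhere. The genome held 81362 clusters, of which 25611 were under 20% in all 4 WT libraries.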

How the data were processed

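Alignment and methylation extraction were done by a computing core, per the labels' protocols, on hg19, per the submitters' processing notes. Aligner and caller were not given in the sources used. Each deposited file gives, for every CpG cytosine by strand, coverage (a raw count of reads) and the percent called C and T, per the file headers. No listed cytosine had under 10 reads. Coverage times percent gave whole reads in 100% of lines, within 5.1e-06 of the coverage.

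Both strands of a CpG were summed, and a level is methylated reads over methylated plus unmethylated reads. Two-sided Fisher's exact tests were run over all 1734462 CpGs and 81362 clusters read 10 or more times in all 7 libraries, with Benjamini-Hochberg adjustment (scipy 1.17.1). Mitochondrial CpGs were kept apart. With 1 library per group the tests compare libraries and cover counting error only. In limma (3.58.1, R 4.3.3) levels were arcsine square root transformed. Intervals are 95% Wilson or Newcombe intervals. The tests were checked on simulated reads. Named CpGs are the 2 with the largest rise and fall called in each genotype comparison, with ties broken by reads over all 7 libraries, and no fall was called. The locus, its regions and the rules were chosen with earlier results of these data known. Alternatives covered depth, cluster gap, tiles, size of difference, strands, unconverted cytosine and scale. Exon positions were not used here.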

Additional observations from a re-analysis of the deposited data

Results flagged for a closer look

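At the size of 25 points, the TKO minus WT difference was called changed, CP against SC, at 1 cluster. It was 172661850 to 172662013, the cluster nearest the NKX2-5 start. The difference was 85.9 points in CP and 59.7 points in SC, a change of 26.3 points (adjusted p = 2.07e-52, z test on reads). This was 1 of 9 clusters of the locus, where 5.81% of all clusters and 2.96% of those under 20% in all 4 WT libraries were called larger. A share of 1 in 9 is not set apart from that background. The cluster was not called with a size of 40 points, and no cluster of the locus was called with a gap of 500 bp or in 1 kb tiles. Changes of 21.5 points at 172665367 to 172665921 and 16.3 points at 172671156 to 172671667 passed the adjusted p but not the size of 25 points. So did rises of 11.9, 10.2, 8.30, 6.34 and 5.71 points at other clusters of the locus. Only 172656581 to 172656695 did not pass, with a change of -3.05 points (adjusted p = 0.355, z test). No genome share was taken for the adjusted p alone. At the called cluster the level was 86.2% in TKO CP and 61.8% in TKO SC, against 0.261% in WT CP and 2.15% in WT SC. The WT SC description carries a label suffix that the other 3 libraries of this contrast lack, and its part in the change was not tested. Within TKO alone, CP minus SC was 24.4 points.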

How the results depend on the processing

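Of 174 results under alternative settings, 148 kept a total of calls, higher plus lower, equal or close to the main one. Of the rest, 13 counts and 3 window ranks moved farther, 7 counts fell to 0 and 3 rose from 0. This sorting compared totals only, not direction or the single CpGs and clusters called. With 30 reads, for example, the total for TKO SC minus WT SC went from 198 to 136 CpGs, with 140 tested. In the genotype comparisons no CpG or cluster of the locus was called lower at any setting. In the 3 genotype comparisons every locus CpG or cluster tested was called when both strands were required (61 of 61 CpGs and 5 of 5 clusters) and every cluster with a gap of 100 bp (14 of 14), so these counts moved because other numbers were tested. With a size of 10 points, 2 CpGs were called lower for WT CP minus WT CME and 2 for WT CM minus WT SC. In TKO CME minus TKO SC, 2 CpGs were called at 10 points, 0 at 40 points, 0 with 30 reads and 0 with both strands. In TKO CP minus TKO CME, 17 CpGs and 3 clusters were called at 10 points, 0 CpGs at 40 points and 2 CpGs with both strands. Genome shares at these alternative settings were not taken. The larger genotype difference in CP than in SC was called in 0 clusters at 40 points, with a gap of 500 bp and in 1 kb tiles. On the logit scale limma called 5 of 9 clusters, and the cause was not tested. Because there is 1 library per group, no replicate numbers could be paired and no replicate left out. TKO and WT libraries of a stage were paired in limma through its stage term, which called 9 of 9 clusters without SC, without CME and without CP. Fits without a stage have fewer residual degrees of freedom than the full one, and stages are not replicate cultures. Depth limits single CpGs: at 12 reads, 0 methylated reads allow up to 24.2%.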
